A study of Mus musculus with 42 samples.

Results

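Lamina-associated domains (LADs) are stretches of the genome that lie against the nuclear lamina, and were mapped here by ChIP-seq of LMNB1 (lamin B1) in mouse liver. The paper states that this method does not tell LMNB1 at the edge of the nucleus from LMNB1 in its interior. The regions described are the autosomal 100-kb bins that lay in a LAD in both mice of one time point and in neither mouse of the other, with CT24 set against CT12, 12 h apart. A bin was taken as in a LAD when at least 50 kb of it was covered. Of 24639 autosomal bins, 7464 lay in a LAD in at least 1 of the 4 mice and 4203 in all 4. There were 204 bins held at CT12 only and 191 held at CT24 only, 395 in all.

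All mice were wild-type C57Bl/6 and were kept in 12 h light and 12 h dark. Mice of the 6 circadian times (CT0 to CT30 at intervals of 6 h) had been kept off chow for 24 h and given food again from CT0 without restriction, so that CT12 and CT24 livers came 12 and 24 h after the return of food. Non-synchronized (NS) mice were taken at noon on the day before food was withdrawn. Each library is the liver of 1 mouse, with 2 mice per time point. The labels call the mice male in one field and female in another, and the paper describes them as male. Whole liver was used, so the LADs are those of all its cells together, hepatocytes and others.

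LMNB1 is a lamin, one of the filament proteins that line the inner face of the nuclear envelope. LADs hold few genes, are rich in A and T, and mostly contain genes that are silent in the tissue, among them large clusters of sensory receptor genes. Many LADs are shared by all cell types and others are found in some cell types only. A LAD can differ between samples at its border, by a gap within it, or as a whole.

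The 4 LAD maps differed in resolution before any comparison of time points. Enriched Domain Detector (EDD), which called the LADs, places borders on a grid whose step it chose for each library, and the step was 5 and 10 kb in the CT12 mice and 14 and 18 kb in the CT24 mice. Step and time point therefore cannot be told apart among these 4 libraries. CT24 replicate 1 stood apart, with 804 bins that none of the other 3 mice held, against 109 for CT24 replicate 2, 221 for CT12 replicate 1 and 289 for CT12 replicate 2. The Jaccard index, which is the length shared over the length covered by either, was 0.782 between the CT12 mice and 0.704 between the CT24 mice. It ranged from 0.690 to 0.754 between mice of different time points.

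Fewer LADs were listed at CT24, and they were longer. CT12 replicates 1 and 2 had 258 and 234 autosomal LADs, and CT24 replicates 1 and 2 had 184 and 177. The mean was 246 ± 17.0 (SD, n = 2) at CT12 and 180.5 ± 4.95 at CT24, a difference of -65.5, and the groups did not overlap. With 2 mice against 2, an exact two-sided permutation test cannot give a p below 0.33, which is the p found here. Median LAD size was 1.27 and 1.60 Mb in the CT12 mice and 2.62 and 2.18 Mb in the CT24 mice, a difference of 0.75 on the log2 scale (means 0.51 ± 0.23 and 1.26 ± 0.19, SD, n = 2, exact permutation p = 0.33). The short LADs made the difference in number: LADs under 1 Mb numbered 105 and 72 at CT12 and 14 and 25 at CT24, and with LADs of 1 Mb or more alone the difference in number was 3.5.

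The length of genome in LADs did not separate the time points. Coverage was 549 and 580 Mb in the CT12 mice and 631 and 518 Mb in the CT24 mice, so the CT24 mice lay on either side of the CT12 mice. Means were 564 ± 21.7 and 575 ± 80.0 Mb (SD, n = 2), and the exact permutation test gave p = 1. LADs held the start sites of 1771 and 2049 protein-coding genes at CT12 and 1972 and 1706 at CT24. The difference of -71 genes was smaller than the SD of either pair (197 and 188 genes, n = 2, exact permutation p = 0.67).

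The bins held at CT12 only made up 0.828% of all autosomal bins and 2.73% of those in a LAD in any of the 4 mice. The bins held at CT24 only made up 0.775% and 2.56%. By comparison, 1387 bins (5.63%) differed between the 2 CT12 mice and 2000 (8.12%) between the 2 CT24 mice. These counts also take in bins held by 1 or 3 of the 4 mice, so they are not on the same footing as the members. Of the 916 bins held by exactly 2 of the 4 mice, 395 were held by both mice of one time point and 521 by 1 mouse of each. The 395 come from 2 possible pairs of mice and the 521 from 4, so the larger count does not mean that mixed pairs were favoured. Most members were far from the 50-kb limit. Of the CT12-only bins, 159 (77.9%) were covered over their full length in both CT12 mice and not at all in either CT24 mouse, and of the CT24-only bins 127 (66.5%) were so in reverse. Among CT12-only bins, 6 had a CT12 mouse at 50 to 60 kb and 4 had a CT24 mouse at 40 to 50 kb, and among CT24-only bins the counts were 13 and 10. Just outside the limit, 16 and 5 bins missed the CT12-only rule, and 10 and 10 the CT24-only rule.

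The size of both sets depended on single libraries. CT12-only bins came to 20.4 Mb with 4 mice, to 61.2 Mb without CT24 replicate 1, to 36.2 Mb without CT24 replicate 2, to 49.3 Mb without CT12 replicate 1 and to 42.5 Mb without CT12 replicate 2. CT24-only bins came to 19.1 Mb with 4 mice, to 99.5 Mb without CT24 replicate 2, to 30 Mb without CT24 replicate 1, to 33.6 Mb without CT12 replicate 1 and to 40.2 Mb without CT12 replicate 2. Fewer mice make the rule easier to meet.

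The plot of run length by place in the LAD shows how the 2 directions differed in form. Adjacent bins were joined into runs, and each run was called a whole LAD when no bin of its LAD was held by any mouse of the other time point, a border shift when it lay at one end of a longer LAD, and an internal gap when LAD bins stood on both sides. The 204 CT12-only bins formed 46 runs on 15 chromosomes, and 147 of them (72.1%) were in 23 whole LADs. The other 57 bins were in 23 border shifts. The 191 CT24-only bins formed 76 runs on 17 chromosomes, and 155 of them (81.2%) were in 70 border shifts. A further 34 bins (17.8%) were in 5 internal gaps, and 2 bins were in 1 whole LAD.

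**Figure D1:**
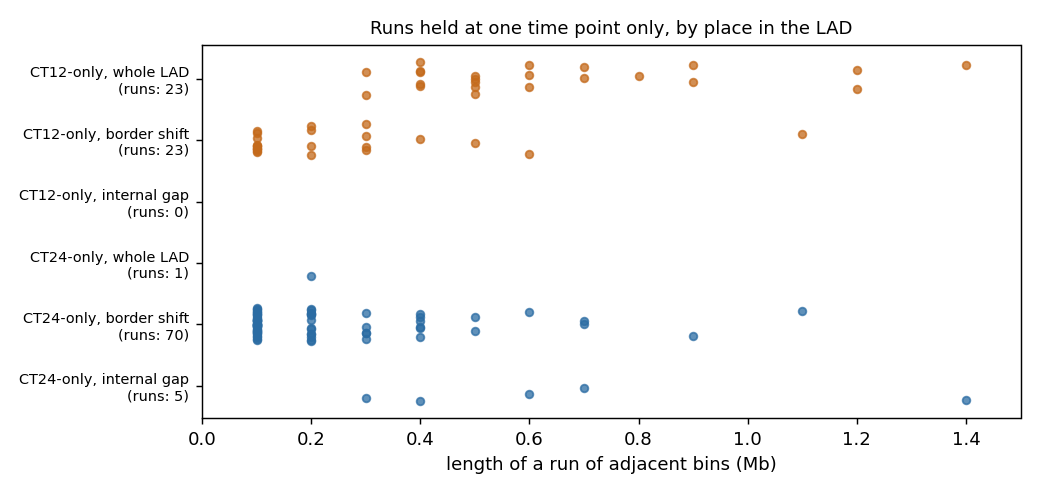
Length in Mb of each run of adjacent bins held at one time point only, by direction and place, each point being 1 run (vertical scatter within a row has no meaning). The 23 whole LADs of CT12 measure 0.3 to 1.4 Mb, while most CT24-only points are border shifts of 1 or 2 bins.

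The whole LADs of CT12 were short and mostly far from LADs shared by both CT24 mice. Their median length was 0.5 Mb, and the nearest bin held by both CT24 mice was 0.9 to 23.9 Mb away, with a median of 3 Mb. By definition a whole LAD has no CT24 bin within it, so the class itself sets part of this distance. Distances to other LADs of CT12 were not measured. The CT24-only runs mostly lay beside LADs of CT12: 49 of 76 (64.5%) lay within 0.1 Mb of a bin held by both CT12 mice, and 6 lay 1 Mb or more away. The same counts for CT12-only runs were 13 and 28 of 46. The 70 border shifts of CT24 fell on 56 LADs, each taken as a stretch of bins held by both CT24 mice. With each stretch counted once per shift, its median length was 2.5 Mb. Of the 70 shifts, 29 were at the left end and 41 at the right, and 38 were a single bin. The 23 border shifts of CT12 fell on 21 LADs, 11 at the left end and 12 at the right.

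The size of the contrast in form depended on short LADs. With LADs of 1 Mb or more alone, whole LADs made up 52.6% of the CT12-only bins and 32.1% of the CT24-only bins, so the order by share was kept. By length they came to 5 Mb at CT12 and 7.8 Mb at CT24, of 9.5 and 24.3 Mb in all, so the order by length turned. LADs under 0.7 Mb numbered 59 and 36 in the CT12 mice and 5 and 5 in the CT24 mice.

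The 10 mice of the other time points, which had no part in choosing the bins, are shown in the plot of held bins by library. The share of CT12-only bins held split by grid step. The 4 libraries with a step of 11 kb or less held 71.1 to 78.9% of them, and these were replicate 2 of NS, CT0, CT6 and CT18, so that outside CT30 step and replicate number cannot be told apart. The 6 libraries with a step of 19 kb or more held 11.3 to 43.1%. The 2 CT0 mice, one on each side of this divide, held 47 and 146 of the 204 bins, and the 2 NS mice held 29 and 145. Whole LADs of CT12 showed the same split, with 17 or 18 of 23 covered over at least 50% of their length in each library of small step and 1 to 5 of 23 in each of the others. Border shifts of CT12 did not split in this way. They were covered to that extent in 13, 14, 14 and 18 of 23 runs in the libraries of small step and in 4 to 19 of 23 in the others, with 16 in CT6 replicate 1 (step 35 kb) and 19 in CT18 replicate 1 (step 19 kb).

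**Figure D2:**
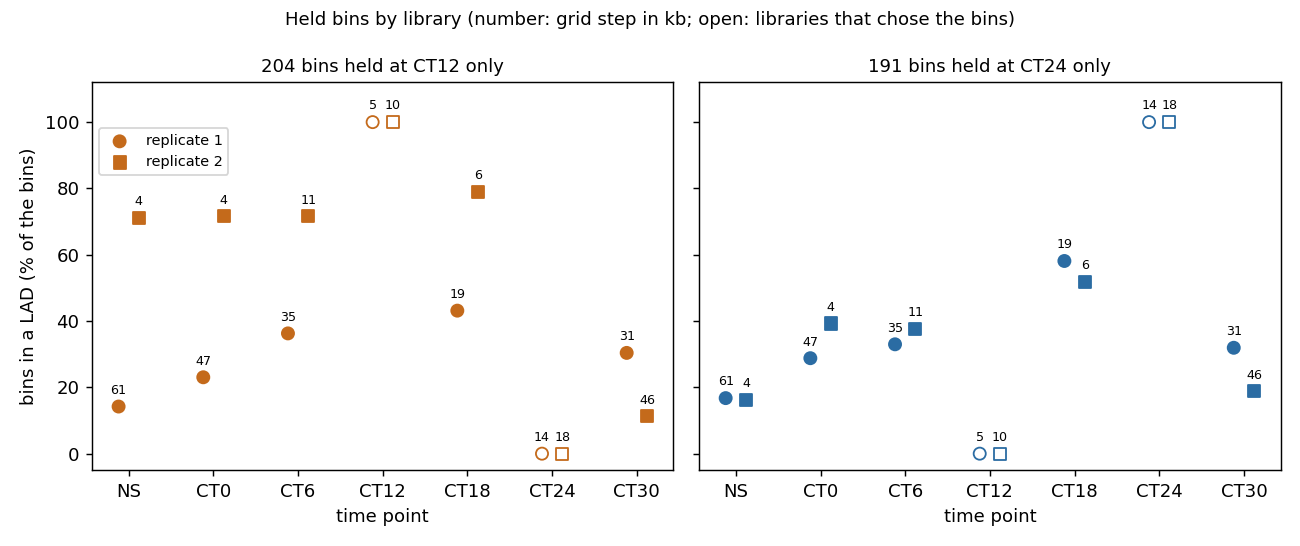
Share of the CT12-only bins (left) and the CT24-only bins (right) that lay in a LAD in each of 14 mice, by time point, with the grid step in kb above each point. Filled points are mice that had no part in the choice, and on the left the 4 with steps of 4 to 11 kb lie at 71.1% or above while the rest lie at 43.1% or below.

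The CT24-only bins did not split by step. The 4 libraries with a step of 11 kb or less held 16.2 to 51.8% of them and the other 6 held 16.8 to 58.1%. The CT18 mice were highest, at 58.1% and 51.8%, and the NS mice were lowest, at 16.8% and 16.2%. The CT0 mice held 28.8% and 39.3%, and the CT30 mice 31.9% and 18.8%. The maps also differed in size. Of all autosomal bins, the CT18 mice held 25.1% and 26.5%, the NS mice 13.5% and 21.1%, and the CT30 mice 16.1% and 15.7%. The part of map size in these shares was not tested. For scale, bins in a LAD in all 4 mice of CT12 and CT24 were held by 56.7 to 98.0% in these 10 libraries.

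Few bins were found at one time point and nowhere else. Only 4 CT12-only bins and 13 CT24-only bins were held by none of the 10 other mice. Both CT18 mice held 79 of the 204 CT12-only bins and 59 of the 191 CT24-only bins. Neither CT30 mouse held 66.7% of the former or 64.4% of the latter. The CT30 maps were smaller, with 16.1% and 15.7% of all autosomal bins against 25.1% and 26.5% in the CT18 mice. The 4 CT12-only bins were 1 run on chromosome 1, chr1:106900001-107300000, which holds a serpin gene cluster described below.

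The bins were unevenly placed along the genome, as the plot by autosome shows. Chromosome 3 held 43 of the CT12-only bins (21.1%), against 5.60% of the bins in a LAD in any of the 4 mice, and chromosomes 7, 1 and 13 held 28, 26 and 24. None lay on chromosomes 4, 11, 15 and 17. Chromosome 4 held 33 of the CT24-only bins (17.3%, against 7.33% of LAD bins) and chromosome 13 held 28, with none on chromosomes 14 and 15. Neighbouring bins of a run are not independent, and no test was made of these counts.

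**Figure D3:**
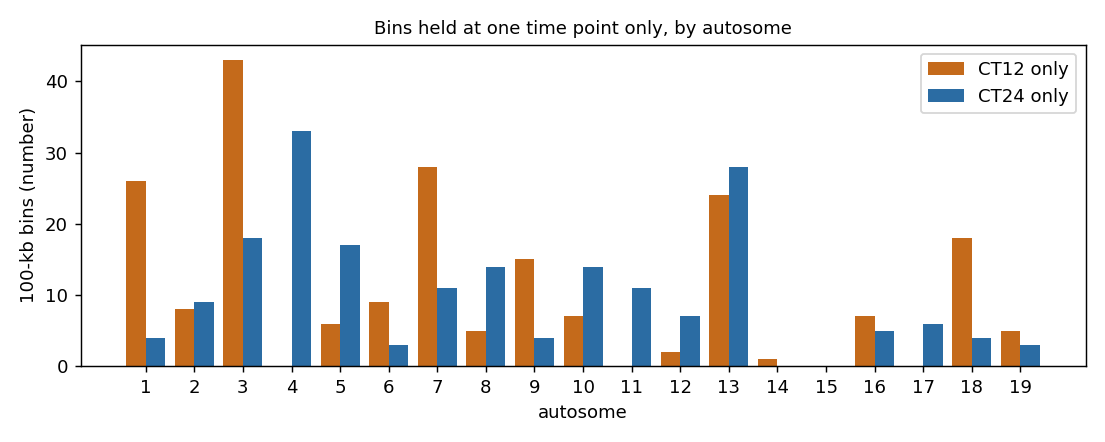
Number of 100-kb bins held at CT12 only and at CT24 only on each of the 19 autosomes. Chromosome 3 has the tallest CT12 bar, 43 bins, and chromosome 4 has 33 CT24-only bins and 0 CT12-only bins.

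In base composition both sets lay between constant LADs and the rest of the genome. Median GC content was 38.4% in CT12-only bins and 39.4% in CT24-only bins, against 37.3% in bins held by all 4 mice and 43.2% in bins held by none. Soft-masked repeats covered a median of 46.5% of CT12-only bins, more than the 42.4% of bins held by all 4, and 36.4% of CT24-only bins. Over all autosomal bins the medians were 41.4% GC and 31.7% repeats. Protein-coding start sites numbered 5.29 per Mb in CT12-only bins and 4.45 in CT24-only bins, between 2.96 in bins held by all 4 and 10.5 in bins held by none.

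CT12-only bins held the start sites of 108 protein-coding genes, 81 of them in whole LADs, and CT24-only bins held 85, 64 in border shifts and 21 in internal gaps. These are 0.519% and 0.409% of the 20807 autosomal genes. For 103 of the 108 and 76 of the 85, the start site itself lay in a LAD in both mice of its own time point and in neither of the other. Median gene length was 6.57 kb in CT12-only bins and 17.8 kb in CT24-only bins, against 17.6 kb over all genes. At least 1 gene started in 23 of the 46 CT12-only runs and in 26 of the 76 CT24-only runs.

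The promoters of 2 genes per direction are given as examples of start sites in a LAD at CT12 or at CT24 but not at both. They are the genes nearest the centre of the longest runs that had a RefSeq promoter. Each runs 250 bases before to 50 bases after the RefSeq start site on GRCm38.p6, 5′ to 3′ on the strand of the gene, with the CG dinucleotides in capitals. Negr1 lies at chr3:156561544-156561843 on the plus strand, Mrgpra4 at chr7:47982247-47982546 on the minus strand, Adgrv1 at chr13:81633095-81633394 on the minus strand and Zfp808 at chr13:62129640-62129939 on the plus strand. Negr1 and Mrgpra4 were in a LAD at CT12, and Adgrv1 and Zfp808 at CT24. Of the 10 mice of other time points, 7 held the start-site bin of Negr1, 4 that of Mrgpra4, 1 that of Adgrv1 and 4 that of Zfp808.
Negr1: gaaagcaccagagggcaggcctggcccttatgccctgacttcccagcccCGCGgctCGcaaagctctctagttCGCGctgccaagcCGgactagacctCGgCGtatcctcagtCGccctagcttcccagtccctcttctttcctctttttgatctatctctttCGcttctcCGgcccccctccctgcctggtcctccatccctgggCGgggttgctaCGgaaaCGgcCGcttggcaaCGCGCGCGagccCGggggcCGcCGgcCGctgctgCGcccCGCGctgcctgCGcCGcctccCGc
Mrgpra4: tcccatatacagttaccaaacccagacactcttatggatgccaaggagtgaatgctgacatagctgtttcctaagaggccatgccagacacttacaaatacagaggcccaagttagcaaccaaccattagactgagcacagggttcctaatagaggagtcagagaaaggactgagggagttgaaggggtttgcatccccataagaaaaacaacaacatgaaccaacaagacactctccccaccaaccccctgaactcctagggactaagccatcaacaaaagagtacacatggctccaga
Adgrv1: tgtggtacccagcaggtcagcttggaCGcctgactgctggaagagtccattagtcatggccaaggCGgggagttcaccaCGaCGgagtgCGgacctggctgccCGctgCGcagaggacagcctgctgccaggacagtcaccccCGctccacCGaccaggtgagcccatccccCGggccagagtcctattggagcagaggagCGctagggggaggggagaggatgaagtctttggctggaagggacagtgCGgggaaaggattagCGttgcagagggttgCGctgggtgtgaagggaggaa
Zfp808: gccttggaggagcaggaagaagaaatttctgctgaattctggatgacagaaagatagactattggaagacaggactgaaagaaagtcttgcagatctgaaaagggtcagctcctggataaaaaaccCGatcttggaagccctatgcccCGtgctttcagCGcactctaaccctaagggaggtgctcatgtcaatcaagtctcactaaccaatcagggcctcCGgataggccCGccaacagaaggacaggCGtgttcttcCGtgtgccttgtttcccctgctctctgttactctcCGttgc

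The promoters ranged from one rich in CG to one with no CG at all. The Negr1 window has 29 CG and 68% GC, and the Mrgpra4 window has 0 CG and 47% GC. Adgrv1 has 14 CG and 63.3% GC, and Zfp808 has 8 CG and 50.3% GC. RefSeq promoters were matched for 74 of the 108 CT12-only genes and 68 of the 85 CT24-only genes. Median CG count was 1 in the CT12-only promoters and 3 in the CT24-only promoters, against 7 in all 25748 autosomal promoters, and median GC content was 39.5%, 48.2% and 53%. The letters TATAAA, read on either strand, were in 43.2% of the CT12-only promoters, 16.2% of the CT24-only promoters and 14.2% of all. The letters CACGTG, the core of the E-box read by the clock proteins CLOCK and BMAL1, were in 1 of 74, in 4 of 68 and in 7.23% of all, and in none of the 4 windows printed. Many of the CT12-only genes are copies within one family, so their promoters do not count as separate observations.

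The longest CT12-only run was chr3:155200001-156600000, 14 bins that hold the start of Negr1, a neuronal cell adhesion gene of the immunoglobulin superfamily. CT12 replicates 1 and 2 had 1400 and 1380 kb of it in a LAD, and both CT24 mice had 0. It was a whole LAD, and the nearest bin held by both CT24 mice was 13.2 Mb away. Of the other 10 mice, 8 covered at least 50% of it and both CT30 mice had 0, so the stretch was missing from 4 of the 14 maps.

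The run chr3:3500001-4700000 holds the start of Hnf4g, a nuclear receptor related to the liver regulator HNF4A. It was covered over 1200 and 1190 kb at CT12 and 0 kb in both CT24 mice. Coverage was 1200 kb in NS replicate 2, 1160 in CT0 replicate 2, 1142 in CT6 replicate 2 and 1200 in CT18 replicate 2, and 0 in the other 6. The 4 mice that held it were those with a grid step of 11 kb or less.

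The run chr7:47400001-48600000 contains 11 genes of the Mrgpr family, Mas-related G protein-coupled receptors of itch- and pain-sensing neurons and mast cells, among them Mrgpra4, Mrgprx1, Mrgprb5, Mrgprb4 and Mrgprb8. CT12 mice had 1200 and 1190 kb in a LAD and CT24 mice 0 kb. Coverage was 568, 792, 1176 and 1164 kb in replicate 2 of NS, CT0, CT6 and CT18 and 1053 kb in CT30 replicate 1, with 0 in the other 5. The LAD borders in the maps around the runs of Negr1, Mrgpra4, Adgrv1 and Zfp808 show these cases beside a gap and a border shift.

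**Figure D4:**
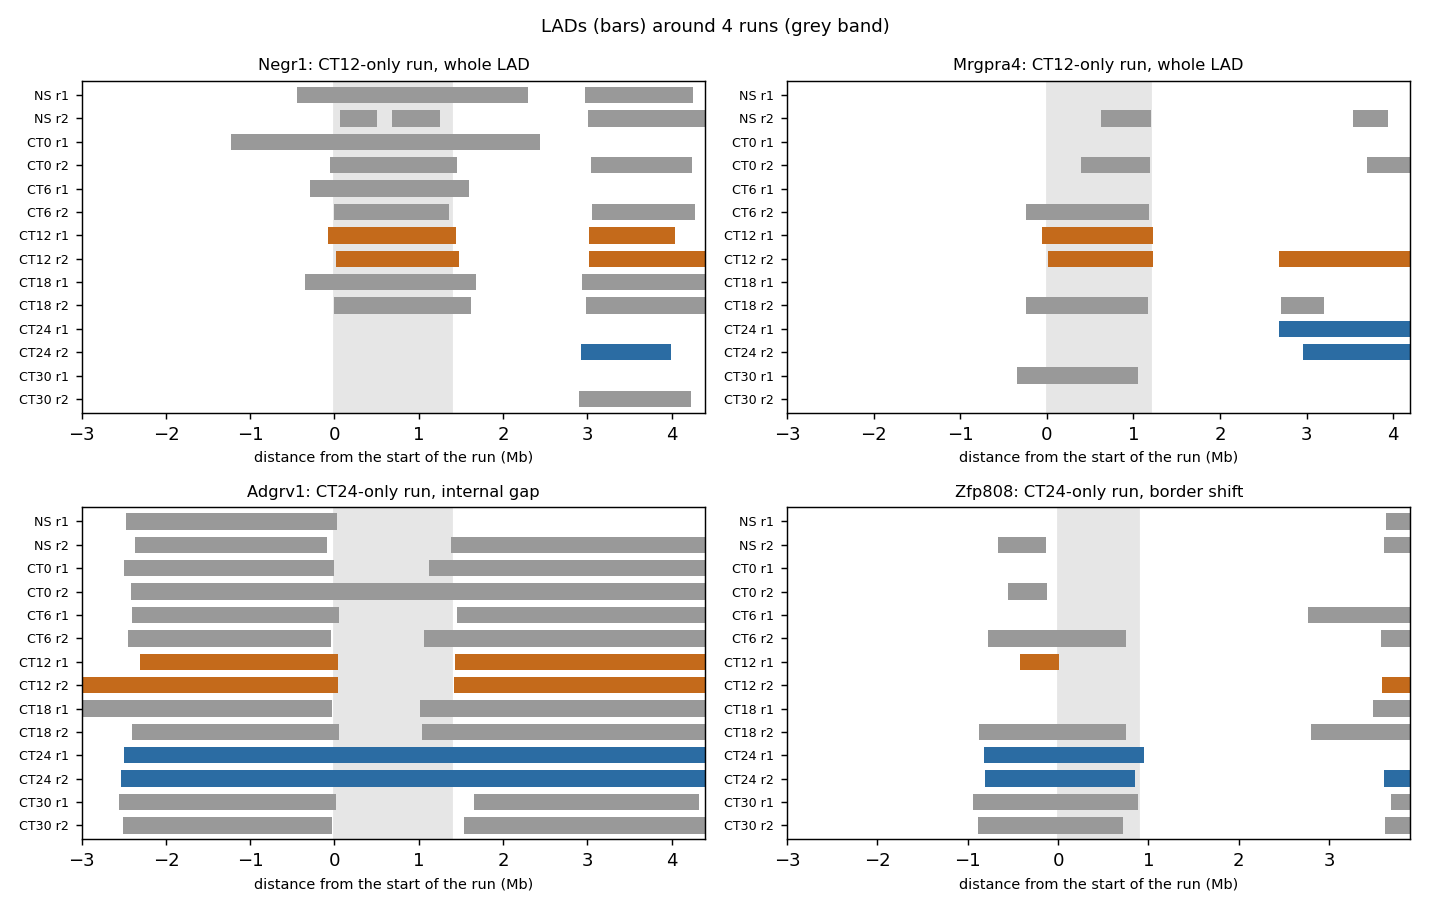
LADs (bars) of 14 mice around 4 runs (grey bands), with the distance in Mb from the start of each run, CT12 in orange, CT24 in blue and other time points in grey. In the upper panels the CT24 rows are empty within the band, at lower left only the 2 CT24 mice and CT0 replicate 2 bridge the band, and at lower right the CT24 LADs extend across it.

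The run chr6:138600001-139500000, with the start of Igbp1b, had 900 kb in each CT12 mouse, 0 in each CT24 mouse, and was covered in the same 4 mice of small step over 638 to 900 kb. The run chr9:35800001-36700000 holds 9 genes, among them Acrv1, a protein of the sperm acrosome, and the predicted genes Gm5916, Gm7257, Gm9513, Gm5615 and Gm17689. It was covered over 870 and 900 kb at CT12, 0 kb at CT24, and at least 50% in 7 of the 10 other mice. The longest border shift was chr13:115200001-116300000, with no protein-coding gene, where CT12 mice had 1085 and 1070 kb and CT24 mice 0.

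Of the 23 whole LADs of CT12, 6 held no protein-coding gene. The 2 described next hold clusters of related genes and were picked out after their values were seen. The run chr1:173700001-174300000 holds 17 genes, more than any other CT12-only run. Among them are interferon-inducible Ifi genes of the DNA-sensing PYHIN family and 9 olfactory receptors. Its nearest bin held by both CT24 mice was 23.9 Mb away. The run chr16:88900001-89400000 holds 15 genes, among them 7 keratin-associated proteins of the hair shaft (Krtap6-1 and Krtap16-3 are examples), and was covered over 490 and 500 kb at CT12 and 0 kb at CT24.

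Of 326 vomeronasal receptors, the pheromone receptors of the nose, 19 lay in CT12-only bins (5.83%) and 1, Vmn2r118, in a CT24-only bin (0.307%), beside 0.519% and 0.409% of all protein-coding genes. Of the 19, 8 lay in the run chr7:5400001-5900000 (Vmn1r58, Vmn1r59, Vmn2r28, Vmn1r60 and Vmn1r61 among them), which was covered over 495 and 500 kb at CT12 and 0 kb at CT24. At least 50% of that run was covered in 4 of the 10 other mice. A group of 9 more was in the border shift chr7:23700001-24000000. The rest, Vmn1r135 and Vmn1r137, were in the border shift chr7:21700001-22000000. Each of these border shifts was covered to that extent in 8 of the 10 other mice. The counts are by bin. The start site of Vmn1r173 itself lay in a LAD in both CT24 mice too, and that of Vmn1r137 in CT24 replicate 1. The start site of Vmn1r181 was not in a LAD in CT12 replicate 1. In the family as a whole, 138 were in LADs in all 4 mice. Of 1087 olfactory receptors, 13 were CT12-only (1.20%) and 8 CT24-only (0.736%), beside the same 0.519% and 0.409%. In LADs in all 4 mice were 523. Only 36.5% of the vomeronasal and 25.9% of the olfactory receptors were in no LAD in any of the 4 mice. For all protein-coding genes this was 87.0%. The shares beside all genes do not allow for how often a family lies in LADs, and nothing about either family is read from them.

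Of 60 serpins, inhibitors of proteases, 6 were CT12-only (10%, beside 0.519% of all genes), namely Serpinb12, Serpinb13 and Serpinb3a to Serpinb3d, and 0 were CT24-only. All 6 lay in 1 run, chr1:106900001-107300000, covered over 390 kb in each CT12 mouse and 0 kb in each of the other 12 mice. It was the sole CT12-only run with less than 50% covered in every one of the 10 other mice.

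Among the CT24-only runs the longest was chr13:80800001-82200000, an internal gap of 14 bins in a LAD stretch of 11.2 Mb. CT24 mice had the full 1400 kb in a LAD and CT12 mice had 40 kb each, at the edges. It holds Adgrv1, a very large adhesion G protein-coupled receptor of the hair cells of the inner ear, Arrdc3, an arrestin-domain protein, Polr3g, a subunit of RNA polymerase III, Cetn3, a centrin of the centriole, and Lysmd3 and Mblac2. CT0 replicate 2 also had 1400 kb, and the other 9 mice had 0 to 422 kb.

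Other gaps held at CT24 only were shorter. The gap chr4:75800001-76500000 has no protein-coding gene and was covered over 700 kb in both CT24 mice and 0 in both CT12 mice. The gap chr10:72600001-73200000 holds the starts of Zwint, a kinetochore protein, and Pcdh15, a protocadherin of hair cells. It was covered over 600 kb in both CT24 mice, over 0 and 10 kb at CT12, and over the full 600 kb in 6 of the 10 other mice. The gap chr7:104200001-104500000 holds 9 Trim genes, among them Trim5 and Trim30a of innate immunity, with 300 kb in both CT24 mice and in CT18 replicate 1, 14 kb in CT6 replicate 2 and 0 in all others. The gap chr16:62700001-63100000, named after its values were seen, holds Pros1, the plasma protein S that the liver secretes, which was not among the listed plasma proteins, with Nsun3, Stx19 and Arl13b. It was covered over 400 kb in both CT24 mice and over 0 and 20 kb at CT12, and 5 of the 10 other mice covered at least 50% of it.

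The border shift chr4:4500001-5600000 holds Impad1, a phosphatase of the Golgi. CT24 mice had 1086 and 1080 kb in a LAD and CT12 mice 0, and 5 of the other 10 mice covered at least 50%. It counts as a border shift because 1 CT12 mouse held bins next to it, while the nearest bin held by both CT12 mice was 7 Mb away. Where a LAD of both mice was asked for, whole LADs came to 2.7 Mb at CT24 and 15.8 Mb at CT12, instead of 0.2 and 14.7 Mb.

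The border shift chr13:61700001-62600000 holds the zinc finger genes Zfp808, Zfp935 and Zfp934, from a family of which many members silence transposable elements, with Gm3604 and Gm49359. CT24 mice had 900 and 850 kb in a LAD and CT12 mice 5 and 0 kb. The nearest bin held by both CT12 mice was 3.9 Mb away. As for Impad1, it counts as a border shift through bins that only 1 CT12 mouse held. Both CT30 mice held it, over 889 and 722 kb, as did CT6 replicate 2 and CT18 replicate 2, over 747 and 748 kb. Of 358 zinc finger genes these 3 neighbours were in CT24-only bins (0.838%, beside 0.409% of all genes), and nothing about the family is read from this count. The start sites of Zfp935 and Zfp934 themselves lay in a LAD in CT24 replicate 1 but not in CT24 replicate 2.

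The border shift chr4:52300001-53000000 holds Smc2, a core subunit of condensin, Toporsl, the pseudogene Vma21-ps, and the olfactory receptors Olfr275, Olfr273, Olfr272 and Olfr270. It was covered over 700 and 674 kb at CT24, 0 kb in both CT12 mice, and 690 kb in CT6 replicate 1. The border shift chr5:85900001-86600000 holds Uba6, an enzyme that activates ubiquitin, Gnrhr, the receptor for gonadotropin-releasing hormone, Stap1, a signalling adaptor of immune cells, and serine proteases of the Tmprss11 family such as Tmprss11c and Tmprss11d. CT24 mice had 662 and 700 kb and CT12 mice 0. Of 90 cadherins and protocadherins, 2 genes in separate runs were in CT24-only bins, Pcdh15 and Cdh2 (N-cadherin). The start site of Cdh2 itself lay in a LAD in CT24 replicate 2 but not in CT24 replicate 1. The count is 2.22% beside 0.409% of all genes, and nothing about the family is read from it.

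Lists of clock and liver genes gave 0 members in either set, beside shares of only 0.519% and 0.409% over all protein-coding genes, so nothing is read from a count of 0 in lists of this size. Of 25 core clock and clock output genes, 0 lay in either set and 24 were in no LAD in any of the 4 mice. All 33 listed genes of liver plasma proteins and all 20 of bile acid and cholesterol synthesis were in no LAD. Of 18 fasting and gluconeogenesis genes and 17 refeeding and lipogenesis genes, 17 and 17 were in no LAD. Of 94 cytochrome P450 genes, 0 were in either set and 83 in no LAD, against 87.0% of all protein-coding genes. Of 240 autosomal genes named as 24 h periodic in the liver transcriptome of this study, 0 were in either set and 234 were in no LAD.

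Borders of LADs present in all 4 mice were compared as positions, without bins. The 4 maps merged into 261 regions, 116 of which had exactly 1 LAD in each mouse, and 225 of their 232 borders were fitted with limma after 7 that were the same in all 4 mice were set aside. No border (0%) passed an adjusted p of 0.05 in either direction. At an unadjusted p under 0.05 there were 19 borders, and the smallest adjusted p was 0.316. The median size of a shift between time points was 142.5 kb, beside median differences between mice of one time point of 125 kb at CT12 and 198 kb at CT24.

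Direction was uneven among the borders. At CT24, 147 borders lay further out and 78 further in than at CT12, with a median shift of 56.5 kb outward. Both CT24 mice lay beyond both CT12 mice at 69 of 225 borders (30.7%), and both CT12 mice beyond both CT24 mice at 29 (12.9%). Together these are 98 borders (43.6%). With 2 mice against 2, random order alone leaves no overlap in a share of 0.33, both directions together. Most of the 98 could therefore arise without a difference between time points, and no test was made of the count. With LADs of 1 Mb or more alone, 2 of 207 borders passed, both further out at CT24. All borders of a library share its grid step, which was coarser in both CT24 mice, and the part of the step in these shifts was not tested.

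**Figure D5:**
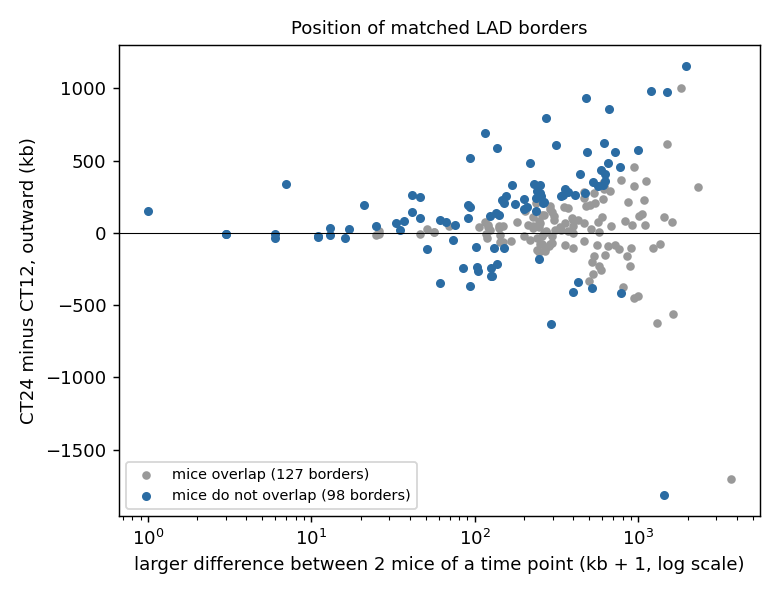
Shift of each of 225 matched LAD borders, CT24 minus CT12 in kb with outward positive, against the larger of the 2 differences between mice of one time point (kb + 1, log axis). Blue points are the 98 borders at which the mice of the 2 time points did not overlap, and more of them lie above 0 than below.

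The border with the smallest p was the right end of the LAD at chr7:59860001-63612000. It lay at 62845 and 62960 kb in the CT12 mice and at 63574 and 63612 kb in the CT24 mice. The shift was 690.5 ± 70.1 kb (SE, n = 2 per group, limma adjusted p = 0.316), and the bins it added hold the starts of Chrna7, a nicotinic acetylcholine receptor subunit, and Otud7a, a deubiquitinase. The right end of the LAD at chr5:77520001-86832000 lay at 85900 kb in both CT12 mice and at 86562 and 86832 kb in the CT24 mice, a shift of 797 ± 121 kb (SE, limma adjusted p = 0.316), and this is the border that took in Uba6 and Gnrhr. In the opposite direction, the right end of the LAD at chr9:3405001-6800000 lay at 6775 and 6800 kb at CT12 and at 6468 and 6408 kb at CT24, a shift of -349.5 ± 56.1 kb (SE, limma adjusted p = 0.316). In these 3 cases the mice of a time point lay closer to each other than to the mice of the other, and the adjusted p did not pass.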

How the data were processed

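LMNB1 ChIP-seq LADs were taken as deposited, as start and end coordinates per mouse on mm10. The authors discarded duplicate reads (Picard), aligned the rest with Bowtie, brought ChIP and input to equal depth chromosome by chromosome, and called LADs with EDD, its parameters being averaged over 10 runs. The deposited intervals carry no score, signal or count, so depth is unknown and the precision comes from 2 mice per time point. That the mice are separate animals is given by the labels' protocol.

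The grid step is the greatest common divisor of LAD starts on whole kb. Bins of 100 kb were compared on 19 autosomes of GRCm38.p6, with GENCODE M21 genes placed by start site and promoters from RefSeq. Values per library were compared by exact two-sided permutation tests, and border positions by limma 3.58.1 (R 4.3.3) with Benjamini-Hochberg adjustment. The limma fit was run on simulated borders, where only few false calls and mostly correct signs were required. How often it finds a border that has moved was not part of that requirement and is not given here. Scripts used Python 3.11.15, NumPy 2.4.6 and SciPy 1.17.1. Named genes were those nearest the centre of the 6 longest runs per direction, up to 5 per run, and up to 5 per gene list and direction. Others named were chosen after their values were seen. The members and gene lists were chosen with earlier results of these data known. Alternatives were other bin sizes, offsets and cover limits, minimum LAD sizes, joined LADs, robust variances, sex chromosomes, a replicate block, and each mouse left out. The 7 inputs and 21 RNA libraries were not used here.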

Additional observations from a re-analysis of the deposited data

Results flagged for a closer look

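LADs on the sex chromosomes were outside the comparisons above. They are listed here because 3 of the 4 mice had more than 3 on chromosome X or on chromosome Y, a limit set by choice. CT24 replicate 2 had 7 LADs on chromosome Y, over 20.1 Mb, while CT24 replicate 1 and both CT12 mice had 0. Among the other 10 mice, CT18 replicate 2 had 5 and CT6 replicate 2 had 1, with 0 in the rest. On chromosome X, CT12 replicate 1 had 7 LADs (4.13 Mb) and CT12 replicate 2 had 9 (6.62 Mb), while CT24 replicates 1 and 2 had 0 and 2. The labels give both sexes for these mice, the paper describes them as male, and the sex of each library was not tested. These are counts of called domains, with no interval for counting error.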

How the results depend on the processing

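Bin size, offset and cover limit left the CT12-only and CT24-only lengths within 1.5 times of 20.4 and 19.1 Mb. With LADs of 1 Mb or more alone, CT12-only bins came to 9.5 Mb, whole LADs to 5 Mb at CT12 and 7.8 Mb at CT24, the difference in LAD number turned to 3.5, that in genes turned to 226.5 (exact permutation p = 0.67) and 2 borders passed. With a minimum of 0.7 Mb, chosen after the LAD sizes were seen, the lengths were 12.8 Mb for CT12-only bins and 7.8 and 3.1 Mb for whole LADs of CT12 and CT24. Whole LADs of CT24 came to 0.4 Mb with 200-kb bins and to 2.7 Mb where both mice of the other time point had to hold the LAD. The causes were not tested.

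With each mouse left out in turn, CT12-only bins ranged from 36.2 to 61.2 Mb, CT24-only bins from 30 to 99.5 Mb, and whole LADs from 23.9 to 34.2 Mb at CT12 and from 1.2 to 16.3 Mb at CT24. The difference in coverage ranged from -46.2 to 67.0 Mb and that in genes from -210 to 68, so both changed sign, and leaving out a mouse did not give a test that could pass. The lower count and larger median size of LADs at CT24 kept their direction, from -77.5 to -53.5 LADs and from 0.58 to 0.91 on the log2 scale. No border passed with any mouse left out (0 to 0), where limma took the lone mouse to vary as the pair does.

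Replicate numbers are shared by the time points, but same-numbered mice did not deviate together (r = -0.0787 over 3261 bins), and no source pairs them. Numbers are those of the labels throughout. The deposited names give CT12 replicate 1, NS replicate 2 and CT0 replicate 2 another number, and by those names CT12 and CT24 share the number 2 alone. A fit with the replicate block called 0 borders (6 at an unadjusted p under 0.05). Counting borders with no overlap of the mice, and no variance model, gave 98 of 225, beside a share of 0.33 under random order of the mice. The 2 mice per time point and unknown read depth limit all comparisons, and a score filter could not be run.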
